A study of Mus musculus with 12 samples.

Results

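Predicted piRNAs whose loci lie in repeats of the LTR/ERV1 family were followed in small RNA from the prefrontal cortex (PFC) of mice. The members are the small RNAs that the deposited files class as piRNAs, give a predicted name (novel_pir) and place in LTR/ERV1. They number 46 at 20 loci, of 424 predicted piRNAs at 114 loci and of 693 piRNAs of any kind. A locus is one repeat interval on one strand, and the counts of its members were added in each library. Adult male C57BL/6 mice went through conditioned place preference (CPP), in which an animal learns to link a chamber with a drug, and the PFC was taken 2 h after the CPP test. SS mice were given saline only, CS mice cocaine and saline, MS mice l-methionine and saline, and MC mice l-methionine and cocaine. Methionine was injected under the skin at 1 g/kg, 2 times a day for 10 days, according to the labels, and cocaine into the abdomen. A figure legend of the study gives a lower methionine dose. Each group had 3 libraries, and each library was made from RNA pooled from 2 animals, so no value belongs to a single mouse. The libraries are named by group and by the replicate number on their label, which are SS 12, 13 and 14, CS 8, 9 and 10, MS 3, 4 and 23, and MC 16, 17 and 20.

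piRNAs are short RNAs that guide PIWI proteins, best known from the germ line, where they silence transposons by cleavage of transcripts and by DNA methylation. ERV1 elements are relics of retroviruses related to the gammaretroviruses, which end in long terminal repeats (LTRs) that can act as promoters. A predicted piRNA is one named by prediction and not from a database. The libraries were made from RNA of small size without a PIWI pull-down, and the files give no role for any of the 46 members.

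Each library held between 7.77 and 11.1 times 1000000 counts. Levels are given as counts per 1000000 counts of that total (CPM), which the authors deposited as TPM. The RNA carried the markers of brain: miR-124-3p, a neuronal miRNA, was between 30002 and 176336 CPM, and all 5 neuronal markers were found in all 12 libraries. Markers of blood (miR-451a, 382 to 3947 CPM), liver (miR-122-5p, 9.04 to 2494 CPM) and choroid plexus (miR-204-5p, 681 to 2461 CPM) were present too. The other blood markers were far lower, miR-144-3p at 1.67 to 19.7 CPM and miR-486a-5p at 1.40 to 49.9 CPM. Markers of ciliated cells and testis, miR-34c-5p (9.53 to 31.1 CPM) and miR-449a-5p (6.32 to 14.9 CPM), were in all 12 libraries. Of the muscle markers, miR-133a-3p was at 24.8 to 82.3 CPM, with miR-1a-3p at most 3.80 and miR-206-3p at most 3.22 CPM. For pancreas and gut, miR-375-3p was at 42.4 to 135 CPM and miR-215-5p at most 0.502 CPM. By their counts on 127 miRNA precursor families the libraries fell into 3 sets that cut across the groups, and the labels name no batch. Set A held SS 12, CS 8 and CS 9, set C held CS 10, MC 16 and MC 17, and set B the other 6, with all MS libraries among them. MS and CS share no set, and MS and MC share only set B. In these files no predicted piRNA is listed below 10 counts, so a member at 0 is one that was not listed, and the lowest level that could be listed lay between 0.903 and 1.29 CPM.

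LTR/ERV1 was the largest repeat family among the predicted piRNAs by counts. Its members held 43.7% ± 3.41 (SD, n = 12) of all counts on predicted piRNAs, although they were only 16.6% ± 1.47 of the predicted piRNAs listed in a library. LTR/ERVL-MaLR held 21.4% ± 4.51 with 103 piRNAs at 16 loci, LTR/ERVK held 11.4% ± 2.35 with 109 piRNAs at 36 loci, and LINE/L1 held 3.78% ± 1.86 with 110 piRNAs at 24 loci. Listing over the libraries differed between families. Of the 46 LTR/ERV1 members, 15 (32.6%) were listed in all 12 libraries, against 13.2% of the 378 predicted piRNAs of other families, and 8 (17.4%) in 1 library only, against 37.6%. Smaller families were listed as widely, with 36.8% of the LTR/ERVL, 33.3% of the LINE/L2 and 44.4% of the LINE/CR1 piRNAs in all 12 libraries. These shares describe the list of predictions and were not tested.

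The 20 loci lay on 10 chromosomes, 4 of them on each of chromosomes 10, 11 and 12, and their intervals were 57 to 1594 bases wide (median 354, mm10). On the minus strand lay 13 loci (65.0%), against 48.9% of the 94 other predicted loci. Between genes lay 13 loci as well (65.0%), against 48.9% of the others. Among the other LTR families, 66.7% of the 36 LTR/ERVK loci lay between genes and 75.0% of the 4 LTR/ERVL loci on the minus strand. Another 5 were in introns, and 2 overlapped an exon. The intronic loci were novel_pir202 in Fut8 and novel_pir100 in Gm47922, on the strand of the gene, and novel_pir181 in Camk2b, novel_pir107 in Gm31793 and novel_pir199 in Tdrd9, on the opposite strand. Camk2b encodes the beta subunit of the calcium and calmodulin dependent kinase II of synapses, Fut8 a fucosyltransferase of N-glycans, and Tdrd9 a helicase of the germ line piRNA pathway. The locus in Tdrd9 was listed in a single library, MS 23, with 11 counts. Of the exonic loci, the interval of novel_pir343 overlapped an untranslated region of Ywhaz (14-3-3 zeta), on the gene's own strand. This locus had 13 counts in SS 12 and 14 in MS 3. The other, novel_pir420, was antisense to an exon of AC161438.1 and was listed only in SS 12, with 12 counts.

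A few loci carried nearly all of the family. The locus of novel_pir186 held 49.0% ± 6.83 of the LTR/ERV1 counts (SD, n = 12, 40.5% to 59.3%), the first 2 loci held 77.3% ± 8.08 and the first 4 held 95.1% ± 1.89. The other 16 loci each had a mean below 10 CPM. Among the members, 5 had a mean above 20 CPM and 37 a mean below 5 CPM.

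**Figure D1:**
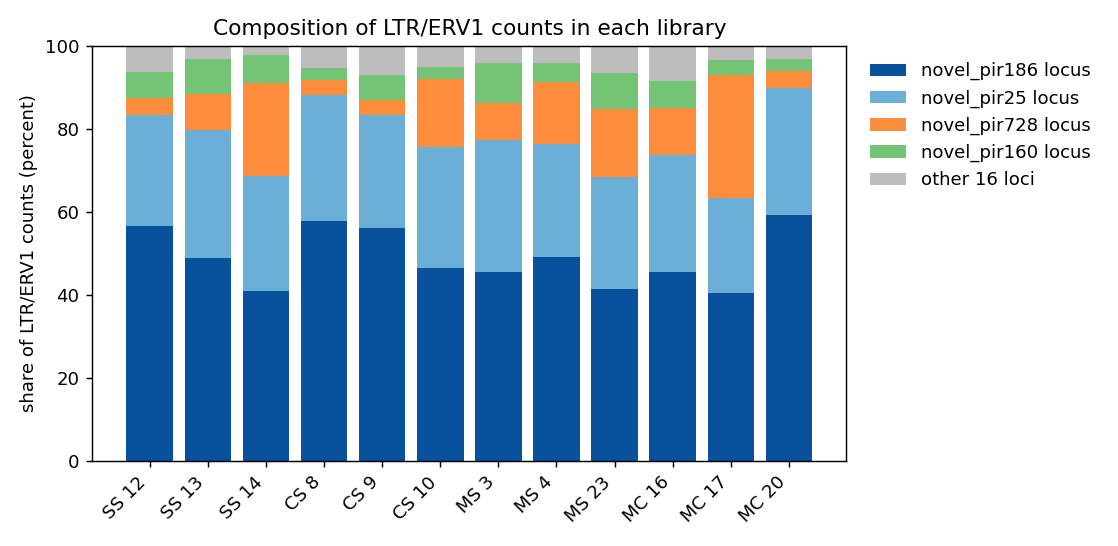
Share of LTR/ERV1 counts (percent, vertical axis from 0) taken by each of the 4 leading loci and by the other 16 together, in each of the 12 libraries. The 2 lower blocks, the loci of novel_pir186 and novel_pir25, fill between 63.4% (MC 17) and 89.9% (MC 20) of a bar, and the block of novel_pir728 is widest in MC 17.

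The locus of novel_pir186 was the most abundant in every library. It spans 120 bases on the minus strand at chr11:57559807-57559926 (mm10), between genes, 25992 bases from the nearest coding gene, Mfap3, and has 9 members. Its level was 446, 283 and 197 CPM in SS, 354, 320 and 275 CPM in CS, 184, 205 and 210 CPM in MS, and 347, 264 and 353 CPM in MC, in the order of the replicate numbers above. The MS libraries lay close together and the SS libraries were the widest apart, with SS 14 inside the MS range. Over the 12 libraries the coefficient of variation was 28.0%, where counting error alone would give 1.95%. The member novel_pir186 itself made up 83.0% of the locus (77.2% to 87.1%) and novel_pir187 15.5% (12.3% to 21.1%). The third, novel_pir189, made up 1.03%. The count of novel_pir186 was between 3.65 and 7.08 times that of novel_pir187.

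The locus of novel_pir25 has 7 members, also on the minus strand between genes, and spans 124 bases at chr10:74719672-74719795, 69935 bases from Pcdh15, which encodes a protocadherin of hair cells. Its level was 211, 179 and 133 CPM in SS, 186, 157 and 172 CPM in CS, 128, 113 and 137 CPM in MS, and 216, 149 and 182 CPM in MC. As at the first locus, the MS libraries were low and SS 14 lay among them. The ratio of the first locus to this one stayed between 1.44 and 2.11, and the first was higher in 12 of 12 libraries. The leading member, novel_pir25, held 66.3% of the locus (63.7% to 73.6%), novel_pir27 held 25.9% and novel_pir23 2.36%.

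The locus of novel_pir728 varied most among the 4 leading loci. It spans 190 bases on the minus strand at chr9:78248505-78248694, 5821 bases from the glutathione S-transferase gene Gsta1, and has 7 members. Its level was 32.2, 51.2 and 107 CPM in SS, 23.2, 20.7 and 97.0 CPM in CS, 36.6, 62.6 and 83.8 CPM in MS, and 87.1, 193 and 24.1 CPM in MC. In every group the highest library was at least 2.29 times the lowest, and the coefficient of variation was 73.1% against 4.00% for counting error. By library set, the level was 20.7 to 32.2 CPM in set A, 24.1 to 107 CPM in set B and 87.1 to 193 CPM in set C, and the part of the set in these values was not tested. The locus was below that of novel_pir25 in 11 of 12 libraries and above that of novel_pir160 in 9 of 12. The member novel_pir728 held 86.9% of the locus (78.2% to 95.5%). In MC 17, where the locus was highest, novel_pir731 and novel_pir729 had 110 and 180 counts, against at most 61 and 43 counts in any other library.

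The locus of novel_pir160 is the fourth, with 5 members over 519 bases on the minus strand at chr11:86815877-86816395, 8131 bases from the helicase gene Dhx40. Its level was 48.6, 48.3 and 33.4 CPM in SS, 16.8, 34.4 and 17.1 CPM in CS, 38.4, 19.0 and 44.3 CPM in MS, and 49.3, 23.3 and 17.0 CPM in MC. Here the 3 SS libraries were all in the upper part, while 1 library in CS, 2 in MS and 1 in MC were as high. The member novel_pir160 held on average 44.6% of the locus but between 10.8% and 65.9% of it, and novel_pir159 and novel_pir157 held 27.8% and 20.6%.

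The next loci were far lower. That of novel_pir386 (1 member, chr17:22137066-22137515, 6844 bases from the zinc finger gene Zfp947) had 9.60, 4.78 and 2.71 CPM in SS, 7.08, 5.28 and 9.17 CPM in CS, 4.56, 4.395 and 8.28 CPM in MS, and 24.8, 5.52 and 7.51 CPM in MC. That of novel_pir206 (2 members, novel_pir206 and novel_pir207, over 1594 bases at chr12:20782914-20784507) had 4.01, 2.89 and 1.35 CPM in SS, 3.54, 3.79 and 3.91 CPM in CS, 1.37, 2.20 and 3.08 CPM in MS, and 10.4, 4.14 and 2.75 CPM in MC. At both, MC 16 stood above the other 11 libraries. Among these 6 loci the order by mean level also held per 100 bases of interval, at 239, 132, 35.9, 6.26, 1.74 and 0.227 CPM per 100 bases. Against the lower loci it did not hold below the fourth. On this scale novel_pir243 (3.53) and novel_pir745 (2.74) were above novel_pir386, and novel_pir192 (0.891) was above novel_pir206. Between novel_pir206 and the seventh locus, novel_pir192 (3.55 CPM), there was no difference beyond the spread, since the first was higher in 6 of 12 libraries. The 14 loci from the seventh on have 15 members and means from 0.0882 to 3.55 CPM.

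**Figure D2:**
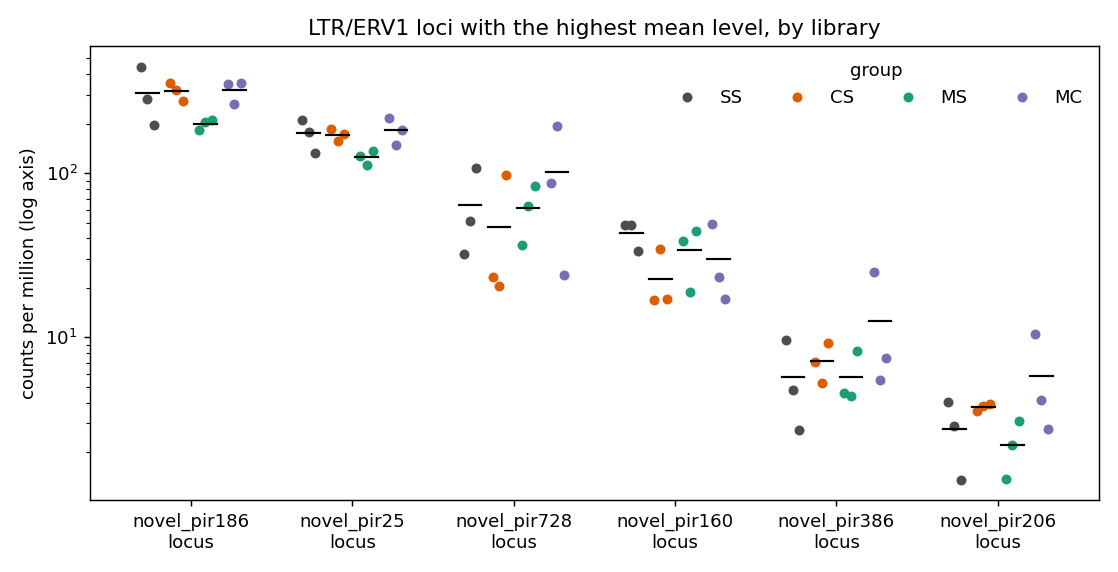
Level of the 6 LTR/ERV1 loci with the highest means, in CPM on a log axis, with 1 point per library, colour by group and a bar at the mean of the 3 libraries of a group. At the locus of novel_pir186 the MS points (184 to 210) lie below every MC point (264 to 353) and SS spans both, while at the locus of novel_pir728 each group is spread from low to high.

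Listing in the libraries thinned out quickly below the leading members. Of the 46, 12 were listed in 6 to 11 libraries and 11 in 2 to 5. The 8 members listed in 1 library had 10 to 16 counts there, the highest being novel_pir183 with 16 counts in CS 8. These counts lie at the lower limit of the listing, so absence in the other libraries says only that fewer than 10 counts were listed.

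**Figure D3:**
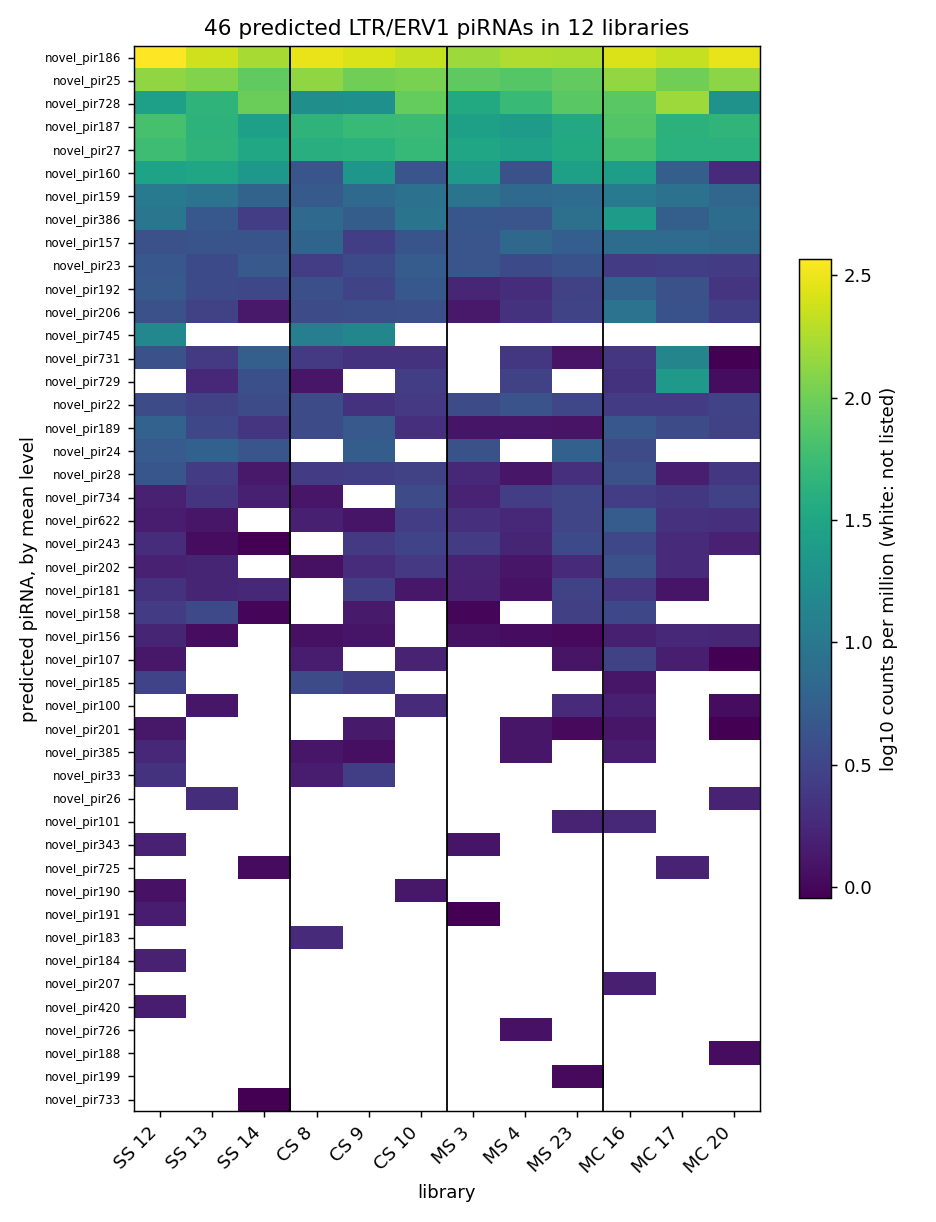
Level of all 46 members (rows, by mean level) in the 12 libraries (columns), as log10 of CPM, with white where a member was not listed. The first rows are filled in all libraries, novel_pir745 and novel_pir33 are filled only in SS 12, CS 8 and CS 9, and the last 8 rows have 1 filled cell each.

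A pattern shared by 4 members at 3 loci divided the libraries in a way that no group does. novel_pir160 was at 29.4, 30.6 and 22.0 CPM in SS, 21.9 CPM in CS 9, 22.8 CPM in MS 3, 27.6 CPM in MS 23 and 26.1 CPM in MC 16. In CS 8, CS 10, MS 4, MC 17 and MC 20 it was between 1.83 and 5.52 CPM, a ratio of medians of 5.98. In the same 7 libraries and no other, novel_pir24, of the novel_pir25 locus, was listed at 3.60 to 5.88 CPM, and novel_pir158, of the novel_pir160 locus, at 0.993 to 3.39 CPM. novel_pir181, antisense to Camk2b, was at 1.55 to 2.98 CPM in the 7 libraries and at or below 1.34 CPM in the other 5. Some of these values lie near the listing limit of 10 counts. novel_pir158 had 11, 12 and 11 counts in SS 14, CS 9 and MS 3. novel_pir181 had 17 to 31 counts in the 7 libraries and 11, 12 and 10 in CS 10, MS 4 and MC 17.

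The division was chosen after the values of novel_pir160 were seen and has no test. The 7 libraries were taken as those that list novel_pir24. The places of novel_pir160 and novel_pir24 among the members counted here are therefore fixed by that choice. The 7 libraries are 3 of SS, 1 of CS, 2 of MS and 1 of MC, and they come from all 3 library sets. Of 149 predicted piRNAs listed in at least 5 libraries, 29 of them LTR/ERV1, 8 were higher in each of the 7 than in any of the 5, and 4 of these 8 were LTR/ERV1. None of the 149 was lower in each of the 7 than in any of the 5. The other 4 were novel_pir469 of LTR/ERVK and novel_pir609, novel_pir614 and novel_pir615 of LTR/ERVL-MaLR. Among the 8, novel_pir24, novel_pir158 and novel_pir469 were listed in none of the 5, so they entered the 149 through the 7 libraries alone. These counts follow in part from how the libraries were chosen, and they do not show a trait of LTR/ERV1. Without novel_pir160, the rest of its locus was between 11.4 and 23.2 CPM and did not divide this way.

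**Figure D4:**
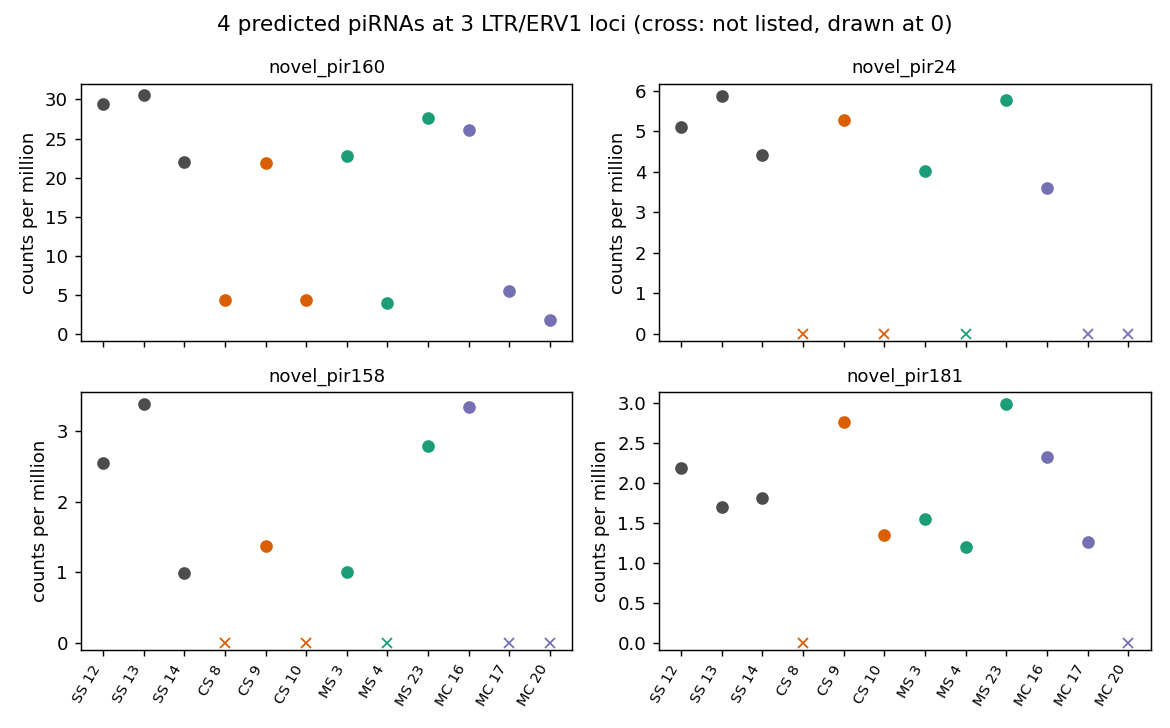
Level of novel_pir160, novel_pir24, novel_pir158 and novel_pir181 in each library, in CPM from 0, with a cross at 0 where the member was not listed. In all 4 panels the same 7 libraries lie above the same 5 (for novel_pir160, 21.9 to 30.6 against 1.83 to 5.52). The lower levels of novel_pir158 and novel_pir181 are near the limit of the listing.

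Another 2 members were listed in the 3 libraries of a single library set. novel_pir745 (chrX:4108110-4108233, minus strand, between genes) had 123 counts in SS 12, 99 in CS 8 and 123 in CS 9, and was listed in no other library. novel_pir33 (chr10:55905792-55906447, plus strand) had 18, 12 and 24 counts in the same libraries and was likewise listed nowhere else. These are the 3 libraries of set A, and 24 of the 693 piRNAs were listed in exactly these. The SS and CS libraries of the other sets, SS 13, SS 14 and CS 10, listed neither member. Set A holds no MS or MC library, and the part of set or treatment in this listing was not tested.

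For the comparison of groups, 136 of 383 features (known piRNAs 1 by 1 and predicted piRNAs by locus) had at least 5 counts in at least 3 libraries and were tested, with 17 of the 20 LTR/ERV1 loci among them. Tests used edgeR's quasi-likelihood method over all 12 libraries, and a call needed a p of 0.05 or less after Benjamini-Hochberg adjustment. In comparisons of 1 group with another, a call also needed a log2 fold change of 1 or more in either direction. No LTR/ERV1 locus was called in CS vs SS, MS vs SS, MC vs CS or MC vs MS, in the interaction of cocaine and methionine or among the 4 groups. The background was the same, with 0.0% of the 136 features called in each of the 6 tests. At an unadjusted p under 0.05 the test gave 1 of 17 loci in CS vs SS (1.47% of all features), 2 in MS vs SS (3.68%), 1 in MC vs CS (3.68%), 0 in MC vs MS (3.68%), 0 in the interaction (2.21%) and 0 among the 4 groups (3.68%). Each group enters more than 1 comparison, so the comparisons share libraries. A second fit took 281 piRNAs 1 by 1, with 32 of the 46 members among them, and called no member in any of the 6 tests (0.0% of the 281). In bulk tissue, fewer cells of a type and less of a piRNA per cell cannot be told apart.

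The question in CS vs SS was the difference after cocaine CPP. The family summed to 788, 580 and 481 CPM in SS (616 ± 157, SD, n = 3) and to 613, 572 and 593 CPM in CS (593 ± 20.5), a log2 ratio of means of -0.06. The CS range lay inside the SS range, and without SS 12 the ratio was 0.16. The smallest p was that of the novel_pir160 locus, with a log2 fold change of -1.20 (SE 0.519, unadjusted p = 0.0419, adjusted p = 0.990 in edgeR's test). Within set A the CS level was also the lower one (25.6 CPM over 2 libraries against 48.6 CPM in 1, a log2 ratio of -0.92). CS 8 and CS 10, the low CS libraries at this locus, are among the 5 in which the member novel_pir160 was low. The member itself had a log2 fold change of -1.49 (SE 0.931, adjusted p = 0.894) in the fit of single piRNAs with edgeR. Of the 17 loci 11 had a fold change above 0 and 6 below, with a median log2 of 0.16 beside 0.17 for all 136 features. With total counts in place of TMM factors the split was 13 to 4. In CPM no locus was without overlap between CS and SS (5.88% of all features were higher and 1.47% lower in CS without overlap). After division by the TMM factors 3 loci were lower in CS without overlap, those of novel_pir160, novel_pir192 and novel_pir25 (7.35% of all features).

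The question in MS vs SS was the difference after methionine alone. The family summed to 403, 416 and 508 CPM in MS (442 ± 56.9), a log2 ratio of means of -0.48 to SS, and the ranges overlapped, with SS 14 at 481 CPM. The ratio was -0.26 without SS 12. Per count on piRNAs of any kind it was -0.57 and the ranges did not overlap, and per miRNA count it was -0.43 with overlap. The novel_pir186 locus had a log2 fold change of -0.68 (SE 0.261, unadjusted p = 0.0258, adjusted p = 0.702) and the novel_pir25 locus one of -0.54 (SE 0.242, unadjusted p = 0.0473, adjusted p = 0.702 in edgeR's test). Within set B, where 3 MS and 2 SS libraries can be compared, the log2 ratios of their mean CPM were -0.27 and -0.31. The member novel_pir189 of the first locus was lowest in MS, at 1.28, 1.30 and 1.25 CPM. It was at 5.95, 3.29 and 2.26 CPM in SS, 3.54, 4.82 and 2.08 CPM in CS, and 4.63, 3.64 and 2.93 CPM in MC. The MS values rest on 14, 13 and 13 counts, near the listing limit of 10 counts. In the fit of single piRNAs its log2 fold change in MS vs SS was -1.57 (SE 0.524, unadjusted p = 0.0116, adjusted p = 0.515 in edgeR's test). In CPM, MS and SS did not overlap at 1 locus with MS higher, novel_pir622 (8.09% of all features), and at 1 with MS lower, novel_pir192 (2.94%). With CPM divided by the TMM factors, 3 loci were lower in MS without overlap, those of novel_pir186, novel_pir192 and novel_pir25 (8.09% of all features). The median log2 was -0.28 over the 17 loci and -0.18 over all features, and 12 of the 17 loci were below 0, or 10 of 17 with total counts.

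The question in MC vs CS was the difference made by methionine in mice given cocaine. The family was at 765, 652 and 595 CPM in MC (671 ± 86.7) against 593 ± 20.5 CPM in CS, a log2 ratio of 0.18 with overlapping ranges, which was 0.07 without MC 16. Per miRNA count the log2 ratio was 0.29, and the ranges did not overlap. Per count on piRNAs of any kind the log2 ratio was -0.35. Counts on all piRNAs were 57120 and 68362 in MC 16 and MC 20, above the 24628 to 50808 of the CS libraries, and 33022 in MC 17. The smallest p was that of novel_pir745, which was listed in 2 of 3 CS libraries and in no MC library (unadjusted p = 0.0480, adjusted p = 0.835 in edgeR's test). A fold against an unlisted group is not defined. The fitted log2 value moved with the setting, from -9.27 in the fit used here to -3.15 with 9 counts in place of unlisted values. With the library set as a covariate the fit gave 0.11 without a standard error. That value is no estimate, since the locus was listed only in set A, which holds no MC library. No locus was without overlap between MC and CS (2.21% of all features were higher and 4.41% lower in MC without overlap). The loci were split 9 above 0 to 8 below (median log2 0.08, all features -0.01), and 13 to 4 with total counts.

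The question in MC vs MS was the difference made by cocaine in mice given methionine. Here the 2 leading loci and the family sum were higher in each MC library than in any MS library. The family sum was 595 to 765 CPM in MC and 403 to 508 CPM in MS, a log2 ratio of means of 0.60. Without the leading locus the log2 ratio was 0.53 and the ranges overlapped, so the separation of the family sum rested on that locus. Loci without overlap and higher in MC were 2 of 17 (11.8%), those of novel_pir186 and novel_pir25, a share near the 9.56% of all features. No locus was lower without overlap (2.94%). In the test, the log2 fold changes of these loci were 0.36 (SE 0.260, adjusted p = 0.909) and 0.19 (SE 0.241, adjusted p = 0.942), or 0.69 (SE 0.324, adjusted p = 0.574) and 0.54 (SE 0.285, adjusted p = 0.593) with total counts in edgeR's test. With CPM divided by TMM factors the novel_pir186 locus alone was without overlap (5.88% of all features). Per count on piRNAs of any kind the family ratio was 0.03, with overlapping ranges, and per miRNA count 0.71, without overlap. Depth differed as well. MC 16 and MC 17 held 7.77 and 7.97 times 1000000 counts, MC 20 held 10.9 and each MS library 10.0 or more. The part of depth in the result was not tested. Within set B the ratio at the novel_pir186 locus was 0.82 on the log2 scale, from MC 20 alone against the 3 MS libraries.

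Member by member, the same comparison gave 7 of 32 higher in MC without overlap (9.61% of the 281 piRNAs). They were novel_pir186, novel_pir187 and novel_pir189 of the first locus, novel_pir25 and novel_pir27 of the second, and novel_pir156 and novel_pir157 of the novel_pir160 locus, so they are not 7 separate cases. After division by the TMM factors 2 were left, novel_pir187 and novel_pir189 (5.69% of the piRNAs). Another 2 were lower in MC without overlap on both scales, novel_pir22 and novel_pir23 of the novel_pir25 locus, against the direction of their own locus. Among the 281 piRNAs that share was 3.91% in CPM and 5.69% after division by the TMM factors. The level of novel_pir23 was 4.38, 3.50 and 4.14 CPM in the MS libraries (48, 35 and 43 counts). In the MC libraries it was 2.57, 2.76 and 2.57 CPM (20, 22 and 28 counts). The smallest p among the loci was that of novel_pir206, with a log2 fold change of 1.00 (SE 0.575, unadjusted p = 0.110, adjusted p = 0.749 in edgeR's test). Without MC 16 the value was 0.44, and without MS 3 it was 0.61. In the other comparisons, members without overlap in CPM were 2 lower in CS than in SS (1.78% of the 281), 2 higher in MS than in SS (4.98%), 3 lower in MS than in SS (4.63%) and 2 higher in MC than in CS (3.56%). After division by the TMM factors these were 5 (6.76%), 1 (3.91%), 6 (8.19%) and 1 (3.2%), so on that scale the highest count was that of members lower in MS than in SS. The 17 loci were split 8 above 0 to 7 below with TMM factors and 11 to 4 with total counts.

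**Figure D5:**
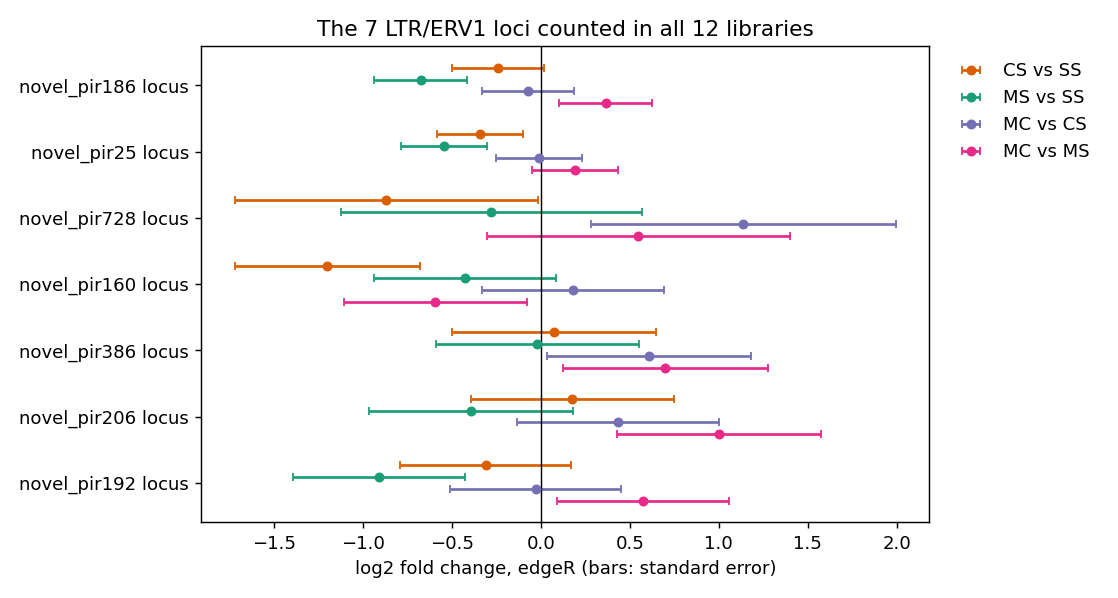
Log2 fold change (horizontal axis, TMM scaling) of the 7 LTR/ERV1 loci listed in all 12 libraries, for CS vs SS, MS vs SS, MC vs CS and MC vs MS. Bars show 1 standard error, derived from the F statistic of the test. No value passed the test, and with total counts in place of TMM factors the value of the novel_pir186 locus in CS vs SS turns from -0.24 to 0.04 and that in MC vs CS from -0.07 to 0.02.

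Whether the difference after cocaine depended on methionine was tested as the interaction. The smallest p among the LTR/ERV1 loci was that of novel_pir186, with a difference of log2 fold changes of 0.61 (SE 0.368, unadjusted p = 0.129, adjusted p = 0.979 in edgeR's test). The novel_pir25 locus had 0.53 (SE 0.341, adjusted p = 0.979). At both loci the difference was within the spread between libraries. The first value was 0.29 without SS 12, 0.31 without MC 20 and 0.38 without CS 10.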

How the data were processed

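Small RNA from PFC was sequenced on the BGISEQ-500 in 12 libraries of 4 groups, which were taken from the treatment label. According to the study's methods, the authors filtered reads, mapped them with AASRA and Bowtie and aligned the remainder to piRBase. The submitters' processing notes name Bowtie and the build mm10, and the program that predicted piRNAs is not given in the sources used here. The deposited counts are reads per small RNA without normalization. The deposited TPM values are counts per 1000000 counts of the library, a ratio they matched within 0.005, and counts summed to the stated total in 12 of 12 libraries. Replicates are separate pools of mice.

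Counts were added per locus (chromosome, strand, start and end) and tested with edgeR 4.0.16 in R 4.3.3, with the quasi-likelihood F-test, TMM factors, total count as library size, 1 coefficient per group and 8 residual degrees of freedom. Adjustment was over all features tested. Each SE beside an edgeR log2 fold change is the absolute change divided by the square root of the F statistic, not a model estimate. Steps were tested on simulated data. DESeq2 1.42.0 and the other alternatives are given at the end. The study's tool, DEGseq, was not used, so that the spread between libraries enters each test. Library sets came from log profiles of precursor families (pseudocount 0.5, counted in at least 6 libraries), whose median correlation was 0.689 within sets and -0.641 between sets by construction. GENCODE M21 gave genes, and Python 3.11.15 with pandas 2.3.3 was used for tables.

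Members and lists were chosen with earlier results of these data known. Named are the 6 loci of highest mean CPM, the 3 leading members of each, and per comparison the tested locus of smallest p. The members of the library division, novel_pir33, novel_pir192 and novel_pir622, and members without overlap were named after their values were seen, as was the scaling of CPM by TMM factors.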

Additional observations from a re-analysis of the deposited data

How the results depend on the processing

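No paired analysis was possible because the groups share no replicate numbers. Calls over the 136 features tested, 0 with edgeR, became 2 in MS vs SS, 2 in MC vs CS, 3 in MC vs MS and 1 in the interaction with DESeq2. With edgeR and no filter on low counts, over 383 features, they were 2 in CS vs SS, 8 in MS vs SS, 3 in MC vs CS, 3 in MC vs MS, 1 in the interaction and 10 among the 4 groups. The only LTR/ERV1 locus among these was novel_pir745, under both settings in MS vs SS and in MC vs CS, and among the 4 groups without a filter. In MC vs CS its log2 fold change was -23.41 with DESeq2 (adjusted p = 4.77e-06) and -9.41 without a filter (adjusted p = 4.96e-06). With the library set as a covariate the fit gave 0.11 in place of -9.27, without a standard error. That value is no estimate, since its 3 libraries are those of set A, which holds no MC library. The other alternatives (total counts, TMM factors from all features, 10 counts in 3 libraries, piRNAs 1 by 1, the library set as a covariate, 6 libraries per fit) left 0 calls. Without the leading locus the family was at 294 CPM in place of 581, and its share of predicted counts 28.3% in place of 43.7%. Its share of the listed predictions was 16.6%. Per piRNA count the family's log2 ratio was -0.35 in MC vs CS and 0.0268 in MC vs MS. After division by TMM factors, which was chosen after seeing the data, loci without overlap were 3 in place of 0 for CS lower than SS, 3 in place of 1 for MS lower than SS and 1 in place of 2 for MC higher than MS.

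Leaving out each library in turn left 0 calls in all 6 tests. The family level ran from 562 to 597 CPM, its share of predicted counts from 43.3% to 44.2% and the share of the leading locus from 48.1% to 49.8%. The log2 ratios of the family ran from -0.21 to 0.16 in CS vs SS, from -0.63 to -0.26 in MS vs SS, from 0.07 to 0.26 in MC vs CS and from 0.50 to 0.71 in MC vs MS, and the first turned to 0.16 without SS 12. The log2 fold change of the novel_pir160 locus in CS vs SS ran from -1.73 to -0.98, that of novel_pir186 in MS vs SS from -0.80 to -0.48 and in the interaction from 0.29 to 0.69, that of novel_pir206 in MC vs MS from 0.44 to 1.23, and that of novel_pir745 in MC vs CS from -9.87 to -9.23 when 1 of the 9 libraries that do not list it was left out. Without SS 12, CS 8 or CS 9, the 3 that do, too few libraries remained for it to be tested. The 20 loci rest on 4166 to 6491 counts per library, so levels of the 4 leading loci are limited by the spread between libraries, and those of members near 10 counts by the limit of the listing. With 3 libraries per group, a p that misses the threshold does not show that groups did not differ.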
